A study of Mus musculus with 2 samples.

Results

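Photoreceptor identity in the mouse retina is set by a small group of transcription factors, and 9 of them were followed here among the 32285 genes in the count tables: Otx2, Crx, Nrl, Nr2e3, Neurod1, Esrrb, Samd7, Thrb and Rxrg. The genes were taken by symbol, and none was chosen from its measured level. Their raw UMIs (unique molecular identifiers, each standing for 1 captured mRNA molecule) were summed over cells of each class in 2 droplet-based 3′ scRNA-Seq libraries of retina, 1 from WT and 1 from ND6P25L mice, both male, C57BL/6J and 7 months of age. The ND6P25L mice carry a missense mutation in the mitochondrial gene for subunit ND6 of respiratory complex I, which models Leber hereditary optic neuropathy. The line was derived from ES cells and kept by mating mutant females with WT males, so that the mutant mtDNA passes through the mother. With 1 library per genotype, no test between genotypes was possible, and every interval below is a 95% interval (exact Poisson for a level, exact conditional for a ratio) that covers counting error only and not the spread between animals.

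The homeodomain factors OTX2 and CRX act early in photoreceptors and keep their genes active in the adult. NRL, a leucine zipper factor, directs precursors to the rod fate and activates Nr2e3, whose product represses cone genes in rods. NEUROD1 is a bHLH factor needed for photoreceptor survival, ESRRB an orphan nuclear receptor of rods, and SAMD7 a SAM-domain protein of a Polycomb complex that silences genes out of place in rods. THRB and RXRG are nuclear receptors of cones, and in the mouse they pattern the cone opsins. OTX2 is also a factor of bipolar cells and of the retinal pigment epithelium (RPE).

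Cells were barcodes holding more than 400 UMIs from more than 200 genes, with mtDNA-encoded genes giving no more than 20% of the UMIs. There were 12529 in WT and 18395 in ND6P25L, with medians of 1878 and 1416 UMIs and 900 and 768 genes. The libraries shared 59 cell barcodes. Cells were clustered without the 9 factors and named from fixed markers. Rod-like cells numbered 9861 in WT and 13390 in ND6P25L. They were divided by the share of their UMIs from Malat1, a long noncoding RNA retained in the nucleus: 2917 WT and 2908 ND6P25L cells had at least 3% (Malat1-high rods, 29.6% and 21.7% of rod-like cells), and 6178 and 9584 had under 1.5% (Malat1-low rods, 62.7% and 71.6%). Malat1-high rods held medians of 3578 (WT) and 2207 (ND6P25L) UMIs and 7.80% and 4.88% mtDNA-encoded UMIs, against 1433 and 1238 UMIs and 13.8% and 9.80% in Malat1-low rods. Cone-like cells numbered 633 and 1140, bipolar-like cells 232 and 628 and Müller-like cells 36 and 90. The defining markers held for each name: cone arrestin (Arr3) reached 1101 and 960 UMIs per 1000000 UMIs (CPM) in WT and ND6P25L cone-like cells against 16.3 and 25.9 CPM in Malat1-high rods, Trpm1, a channel gene of ON bipolar cells, reached 1427 and 895 CPM in bipolar-like cells against 1.25 and 8.69, and the glutamate transporter Slc1a3 reached 503 and 605 CPM in Müller-like cells against 1.91 and 6.02.

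Rod RNA was present in every class. The summed rod markers stood at 63448 (WT) and 69249 (ND6P25L) CPM in cone-like cells, near the 70429 and 67076 CPM of Malat1-high rods. In bipolar-like cells they stood at 32795 and 34231 CPM. In Müller-like cells they stood at 45542 and 41768 CPM, against 13600 and 15599 CPM for the summed Müller markers. Gnat1, which encodes the alpha subunit of rod transducin, stood at 7509 (WT) and 7304 (ND6P25L) CPM in Malat1-high rods, and still at 3875 and 4128 CPM in microglia- or macrophage-like cells, which do not make it. In barcodes with 10 to 100 UMIs, which hold free RNA, it stood at 6093 and 8662 CPM. Of the 9 factors, 8 were counted in these cells of both libraries: in microglia- or macrophage-like cells Otx2 stood at 117 (WT) and 120 (ND6P25L) CPM, Crx at 273 and 350, Nrl at 1202 and 1059, Nr2e3 at 595 and 638, Neurod1 at 660 and 470, Esrrb at 56.3 and 76.7, Samd7 at 128 and 61.4 and Thrb at 40.7 and 61.4 CPM. A level outside rods is therefore set below beside Gnat1, a reference chosen after the data were seen, by counting UMIs of the factor per Gnat1 UMI relative to Malat1-high rods of the same library.

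The promoters of the 9 genes were searched for the short motifs that these factors are known to bind. The RefSeq promoter table (GRCm38.p6) holds 15 entries for the 9 genes, and the 250 bases before each start site were read on both strands. TAATCC, the core site of OTX2 and CRX, was in 4 of the 15 (26.7%), against 6.25% of all 32851 promoters, and the 4 belong to Crx, Samd7, Otx2 and Thrb. TGCTGA, a core of NRL sites, was in 2 (13.3%; 16.1% of all), for Neurod1 and Otx2. AGGTCA, the nuclear receptor core, was in 2 (14.02% of all), for Rxrg and Thrb. CAGATG, an E box of NEUROD1, was in 2 (14.4% of all), for Nrl and Otx2. No motifs overlapped, and no entry of Nr2e3 or Esrrb held any of them. Shown 5′ to 3′ on the strand of the gene, with the motifs in capitals, are the 3 promoters with a motif that lie outside annotated exons, or for Crx all but 13 bases: Crx with GGATTA, the reverse complement of TAATCC, starting 94 and 21 bases before the start site, Samd7 with GGATTA 139 bases before it, and the second Rxrg entry with AGGTCA 88 bases before it. A match is a description of letters and not of binding.
Crx, chr7:15879956-15880205, minus strand: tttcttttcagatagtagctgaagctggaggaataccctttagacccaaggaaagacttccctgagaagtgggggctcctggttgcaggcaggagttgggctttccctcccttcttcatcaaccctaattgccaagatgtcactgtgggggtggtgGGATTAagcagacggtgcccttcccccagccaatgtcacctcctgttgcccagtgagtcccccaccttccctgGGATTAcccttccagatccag
Samd7, chr3:30746043-30746292, plus strand: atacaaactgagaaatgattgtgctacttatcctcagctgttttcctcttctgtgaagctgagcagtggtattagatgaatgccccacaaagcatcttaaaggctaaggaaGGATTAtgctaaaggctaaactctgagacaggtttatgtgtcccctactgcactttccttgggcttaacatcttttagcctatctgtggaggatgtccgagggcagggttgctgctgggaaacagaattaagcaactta
Rxrg, chr1:167618015-167618264, plus strand: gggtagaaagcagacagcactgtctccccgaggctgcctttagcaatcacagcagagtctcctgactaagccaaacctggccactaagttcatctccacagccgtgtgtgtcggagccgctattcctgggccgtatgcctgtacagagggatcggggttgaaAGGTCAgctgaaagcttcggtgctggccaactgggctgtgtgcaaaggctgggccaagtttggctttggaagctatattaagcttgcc

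Across Malat1-high and Malat1-low rods, cone-, bipolar- and Müller-like cells the factors did not share a pattern. Otx2 was highest in bipolar-like cells, Crx, Thrb and Rxrg in cone-like cells, Nrl in Malat1-low rods, and Nr2e3, Neurod1, Esrrb and Samd7 in Malat1-high rods, in both libraries. The classes that stood next to each other in order were often not apart: in WT, Otx2 in bipolar-like (490 CPM), Müller-like (448), Malat1-high rod (429) and cone-like cells (428) overlapped neighbour by neighbour in their intervals, and only Malat1-low rods (131) lay clearly below.

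**Figure D1:**
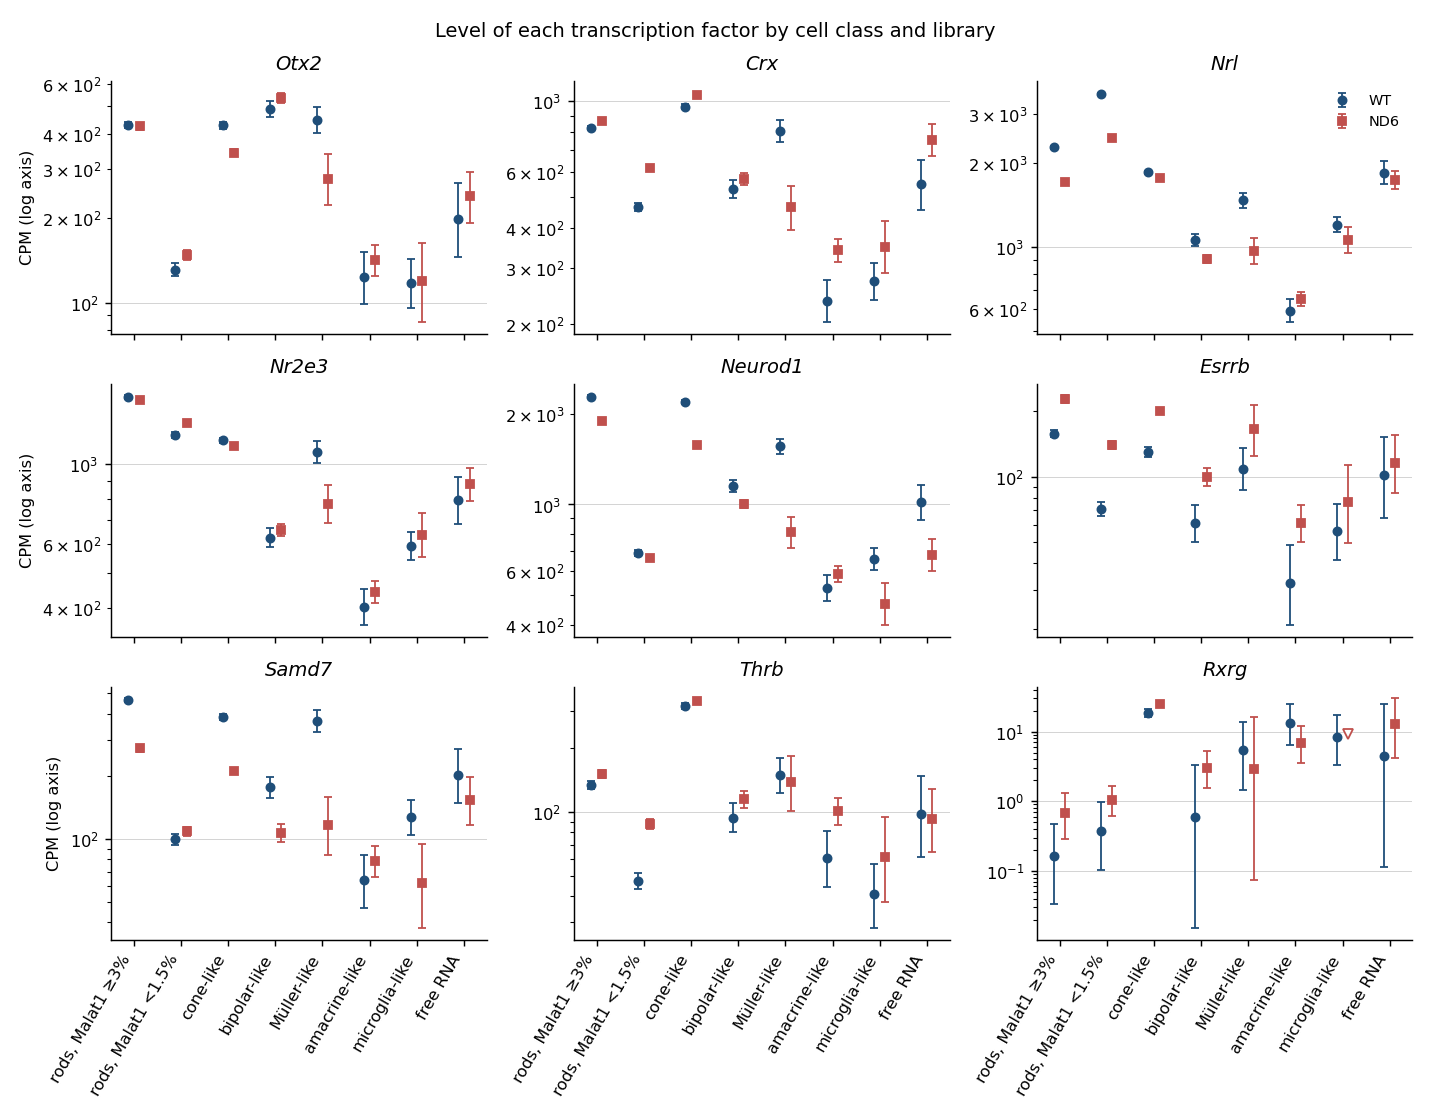
Level of each of the 9 factors in each class of cells and in free RNA (CPM on a log scale), with WT and ND6P25L side by side and exact Poisson 95% intervals; the open triangle marks the level that 3 UMIs would give where none was counted. Rxrg stands at 18.5 and 25.1 CPM in cone-like cells and at 0.164 and 0.669 CPM in Malat1-high rods, and Otx2 stands at 131 and 148 CPM in Malat1-low rods, close to its level in amacrine-like and microglia- or macrophage-like cells.

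The comparison within rods asked how the factors divide between rods with much and with little nuclear RNA. Otx2, Neurod1, Esrrb, Samd7 and Thrb were at least 2-fold higher in Malat1-high than in Malat1-low rods of the WT library, and Otx2, Neurod1 and Samd7 in the ND6P25L library. Nrl was lower in Malat1-high rods of both. Those 5 of 9 genes stand against 43.4% of all genes tested in WT, and the 3 of 9 against 32% in ND6P25L. The median gene was itself 0.84 (WT) and 0.59 (ND6P25L) higher on the log2 scale in Malat1-high rods. Of these 9, Rxrg had 7 UMIs over both WT groups and did not pass the minimum of 20.

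Otx2 (chr14:48657677-48673819, minus strand, GRCm38) stood at 429 CPM in Malat1-high and 131 CPM in Malat1-low rods of WT, and at 425 and 148 CPM in ND6P25L. The difference was 1.71 on the log2 scale (interval 1.63 to 1.79) in WT and 1.52 (1.45 to 1.59) in ND6P25L, which is 0.87 and 0.93 above the median gene. Crx (chr7:15865947-15879968, minus strand) stood at 823 and 466 CPM in WT and at 864 and 616 CPM in ND6P25L, and its differences of 0.82 and 0.49 were 0.02 and 0.10 below those of the median gene. Crx thus moved as the median gene did, whereas Otx2 exceeded it in both libraries.

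Nrl (chr14:55518978-55524981, minus strand) went the other way, at 2281 CPM in Malat1-high and 3553 CPM in Malat1-low rods of WT and at 1710 and 2458 CPM in ND6P25L. Its log2 differences were -0.64 (-0.66 to -0.62) and -0.52 (-0.55 to -0.50), or -1.48 and -1.11 relative to the median gene. Nr2e3 (chr9:59942771-59960659, minus strand) differed little, at 1533 and 1206 CPM in WT and 1509 and 1304 CPM in ND6P25L. Its differences of 0.35 and 0.21 lay 0.50 and 0.38 below the median gene, so that its sign depends on the scale: scaled by the median of ratios over genes it was -0.41 and -0.37. The rod-fate pair therefore had the lowest differences of the 8 factors that passed the minimum in both libraries.

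Neurod1 (chr2:79452521-79456751, minus strand) stood at 2276 CPM in Malat1-high and 690 CPM in Malat1-low rods of WT and at 1890 and 664 CPM in ND6P25L, log2 differences of 1.72 (1.69 to 1.76) and 1.51 (1.48 to 1.54). Samd7 (chr3:30746293-30767174, plus strand) had the widest difference of the 9 in WT, with 463 against 100 CPM, or 2.21 (2.12 to 2.30), and in ND6P25L it stood at 273 against 109 CPM, or 1.32 (1.24 to 1.41). Relative to the median gene these were 0.88 and 0.92 for Neurod1 and 1.37 and 0.74 for Samd7. The narrower difference of Samd7 in ND6P25L came with a lower level in Malat1-high rods, while the levels in Malat1-low rods were close.

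Esrrb (chr12:86361117-86521628, plus strand) stood at 157 and 71.1 CPM in WT and at 227 and 139 CPM in ND6P25L, differences of 1.14 (1.02 to 1.26) and 0.70 (0.62 to 0.78). Thrb (chr14:17660261-18038090, plus strand), a receptor gene known from cones, was also counted in rods, at 134 and 47.1 CPM in WT and 151 and 87.4 CPM in ND6P25L. Rxrg (chr1:167598384-167639623, plus strand) was near absent from rods, with 3 UMIs in Malat1-high and 4 in Malat1-low rods of WT and 8 and 17 in ND6P25L. The 8 factors other than Rxrg had a smaller difference, in absolute size, in the ND6P25L library than in WT, as had 68.2% of all genes. Relative to the median gene, Otx2 (0.87 and 0.93), Neurod1 (0.88 and 0.92) and Crx (-0.02 and -0.10) did not.

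Depth moved with Malat1 in these cells. Within rods of more than 1000 and at most 2000 UMIs, a limit added after the data were seen, the log2 differences in WT were 1.93 for Otx2, 0.85 for Crx, -0.97 for Nrl, 2.01 for Neurod1 and 2.44 for Samd7, and in ND6P25L 1.90, 0.55, -0.68, 1.85 and 1.53. For these 5 factors they were wider than over rods of all depths. In the deepest group of rods by UMIs (1017 Malat1-high and 84 Malat1-low cells in WT) the differences kept their direction but were narrower. WT Otx2 stood there at 455 against 309 CPM, Neurod1 at 2338 against 1389 and Samd7 at 492 against 241. Crx stood at 876 against 766 CPM and Nrl at 2307 against 3031. In ND6P25L, in that order, the levels were 436 against 234, 1859 against 952, 280 against 155, 925 against 867 and 1788 against 2553 CPM. How far depth accounts for the division was not tested. Thinned to 400 UMIs a cell, Otx2 was seen in 13.6% of WT Malat1-high and 4.60% of WT Malat1-low rods (2.70% of microglia- or macrophage-like cells), Samd7 in 15.3% and 3.01% (3.09%), Neurod1 in 55.9% and 20.7% (15.8%), and Nrl in 56.3% and 75.1% (39.8%). For Samd7 the share in WT Malat1-low rods was thus at that of cells that should lack it. In ND6P25L it was 3.65% (3.29% to 4.05%) against 0.676% of 148 cells (0.0171% to 3.71%, exact binomial intervals), and these intervals overlapped. Before thinning the medians were 3578, 1433 and 1664 UMIs a cell.

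Finer steps of the Malat1 share gave the same order. From rods with under 0.25% Malat1 to those with the highest share, Otx2 went from 108 to 443 CPM in WT, Neurod1 from 599 to 2758 CPM and Samd7 from 80.6 to 557 CPM, while Nrl went from 3633 down to 1783 CPM. In ND6P25L, Nrl went from 2513 to 1477 CPM. Gnat1 was highest at 0.5% to 1.5% Malat1, at 10933 CPM in WT and 11813 CPM in ND6P25L, and stood at 4529 and 4479 CPM at the highest share. Kcnq1ot1, another nuclear long noncoding RNA, went from 3.76 to 368 CPM in WT and from 10.7 to 548 CPM in ND6P25L.

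**Figure D2:**
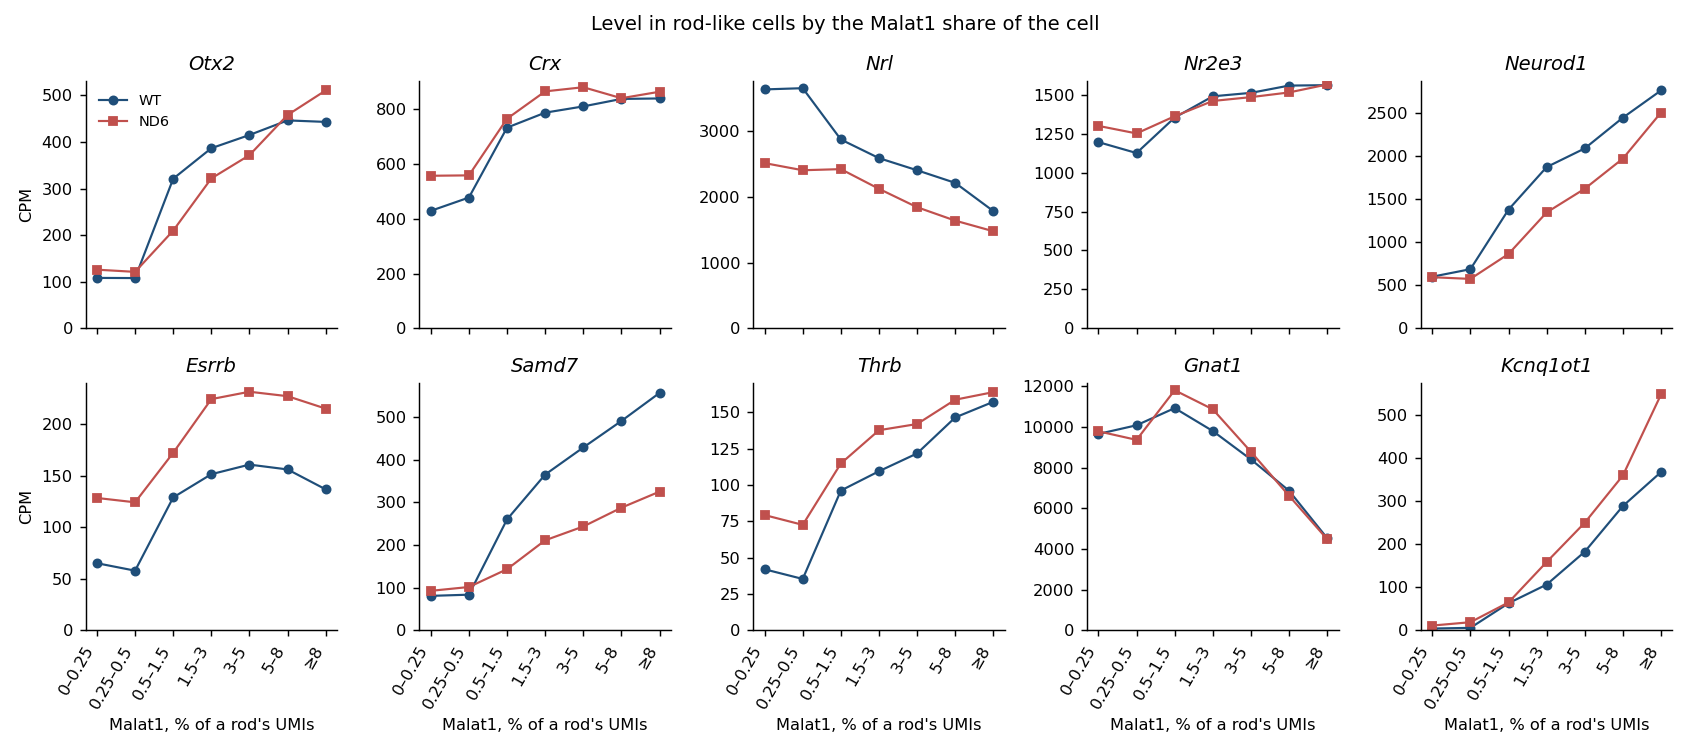
Level of 8 factors and of Gnat1 and Kcnq1ot1 (CPM, linear axes from 0) in rod-like cells by the share of UMIs from Malat1 (percent), with WT and ND6P25L as separate lines and no error bars; Rxrg is left out for its few UMIs. Otx2, Neurod1 and Samd7 are higher toward the highest Malat1 share (443, 2758 and 557 CPM in WT) and Nrl is lower (1783 CPM).

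Other regulators of photoreceptors, from a list of 23, were mostly higher in Malat1-high rods, as the median gene was. In WT, 21 had 20 UMIs or more, and 11 were at least 2-fold higher in Malat1-high rods (43.4% of all genes), with a median of 1.05 on the log2 scale against 0.84 over all genes. In ND6P25L, 5 of 22 were (32% of all genes), with a median of 0.74 against 0.59. Prdm1, which encodes a repressor that keeps photoreceptors from the bipolar fate, had the widest difference (25.5 against 4.91 CPM in WT and 20.2 against 5.77 in ND6P25L). Casz1, a zinc finger gene of photoreceptors, followed at 880 against 279 and 976 against 357 CPM. Six6 (2.34 against 2.65 CPM in WT and 4.85 against 5.89 in ND6P25L) and Lhx4 (0.327 against 1.42 and 2.09 against 4.36 CPM), genes of the eye field and of bipolar cells, lay at the other end.

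Photoreceptor genes outside the regulators differed from them. Of 20 photoreceptor genes, 2 in WT and 1 in ND6P25L were at least 2-fold higher in Malat1-high rods, and the medians were -0.22 and -0.32, below those of all genes (0.84 and 0.59). Mak, a kinase gene of the ciliary axoneme, was the highest at 404 against 107 CPM in WT and 401.4 against 139 in ND6P25L, followed by the phosphatase gene Ppef2 at 132 against 63.2 and 113 against 64.2 CPM. Recoverin (Rcvrn) was among the lowest, at 3626 against 5796 CPM in WT and 2729 against 4924 in ND6P25L, together with Rom1 in WT (4906 against 8684) and Rbp3 in ND6P25L (1668 against 3041 CPM). Below 0, as Nrl was, were 14 of 20 photoreceptor genes in each library, against 20.5% of all genes in WT and 25.5% in ND6P25L. Above 0, as Otx2 was, were 19 of 21 and 20 of 22 regulators, against 79.5% and 74.5% of all genes. Scaled by the median of ratios over genes, which moves the median of all genes by -0.75 in WT and -0.58 in ND6P25L, the factors at least 2-fold higher were 1 in WT (Samd7) and 0 in ND6P25L, Crx was at 0.07 and -0.09, and Otx2, Neurod1, Esrrb, Samd7 and Thrb stayed above 0 in both libraries.

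Cone-like cells, with median Malat1 shares of 2.95% (WT) and 2.24% (ND6P25L), were set beside Malat1-high rods (5.07% and 6.18%). Thrb and Rxrg were at least 2-fold higher in cone-like cells of both libraries, 2 of 9 factors against 6.67% of all genes in WT and 5.42% in ND6P25L. Thrb stood at 317 CPM (306 to 327) in WT and 335 CPM (326 to 344) in ND6P25L cone-like cells, against 134 and 151 CPM in Malat1-high rods, which is 1.24 and 1.14 on the log2 scale. Rxrg counted 196 UMIs in WT and 384 UMIs in ND6P25L cone-like cells, 18.5 and 25.1 CPM, against 3 and 8 UMIs in Malat1-high rods, so that the log2 ratios of 6.83 (5.26 to 9.12) and 5.23 (4.24 to 6.45) have wide intervals. Of these receptor genes, Rxrg was the one near its floor in rods, and Thrb was counted in both.

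The other 7 factors lay between -0.42 and 0.28 of Malat1-high rods on the log2 scale in cone-like cells. Against all rod-like cells, Otx2, Neurod1 and Samd7 lay at 0.37, 0.34 and 0.20 in WT and 0.32, 0.38 and 0.21 in ND6P25L, and so changed sign with the rods chosen for reference. Crx was slightly higher (960 against 823 CPM in WT and 1047 against 864 in ND6P25L). Nr2e3 was lower, at 1165 against 1533 and 1126 against 1509 CPM, and Nrl stood at 1854 against 2281 CPM in WT and 1775 against 1710 in ND6P25L. Per Gnat1 UMI, Nrl in cone-like cells was at -0.34 and -0.29 of Malat1-high rods on the log2 scale, beside the rod arrestin gene Sag at -0.28 and -0.57, while Thrb was at 1.199 and 0.804. Nrl thus stood slightly below the ratio to Gnat1 that it had in rods, as Sag did. Cone-like cells also held 28.6% (WT) and 31.1% (ND6P25L) of cells among the highest 10% of doublet scores, against 9.19% and 7.67% of Malat1-high rods.

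The cone-like class joined 2 clusters of unlike depth. The larger (505 WT and 831 ND6P25L cells, medians of 10366 and 11475 UMIs) held Otx2 at 435 and 351 CPM, and the other (128 and 309 cells, medians of 1499 and 1402 UMIs) at 136 and 150 CPM. Their median Malat1 shares were 3.46% and 2.76% in the larger and 0.194% and 0.565% in the smaller. Neurod1 followed Otx2, at 2214 and 1611 CPM against 864 and 909 CPM, but Crx less so, at 966 and 1061 against 662 and 744 CPM. Otx2 and Neurod1 were thus lower in the cone-like cluster with the lower Malat1 share, as they were in Malat1-low rods. That cluster was also the shallower, so Malat1 share and depth cannot be told apart here, and the part of free RNA was not tested.

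Cones of the mouse carry the S opsin (Opn1sw), the M opsin (Opn1mw) or both, and THRB with RXRG takes part in that choice. Among cone-like cells with at least 10 opsin UMIs (527 of 633 in WT and 960 of 1140 in ND6P25L), Thrb stood at 290 CPM (275 to 305) where Opn1mw made under 20% of opsin UMIs, 328 CPM (303 to 354) between 20% and 80%, and 362 CPM (342 to 384) above 80% in WT. In ND6P25L the levels were 314, 356 and 361 CPM. Rxrg went the opposite way, at 22.2, 18.1 and 13.8 CPM in WT and 29.9, 21.7 and 20.8 CPM in ND6P25L, with 113, 37 and 44 UMIs behind the WT values. The first and the last of these groups had intervals of Thrb that did not overlap in WT or in ND6P25L (301 to 327 against 342 to 380 CPM). Those of Rxrg overlapped slightly in WT (18.3 to 26.6 against 10.0 to 18.5 CPM) and not in ND6P25L (26.0 to 34.3 against 16.4 to 25.9 CPM). Otx2 stood at 451, 420 and 412 CPM in WT and 360, 353 and 313 CPM in ND6P25L. Crx was level over the 3 groups, at 965, 987 and 956 CPM in WT and 1041, 1087 and 1043 in ND6P25L. These groups were 267, 102 and 158 cells of WT and 479, 228 and 253 cells of ND6P25L.

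**Figure D3:**
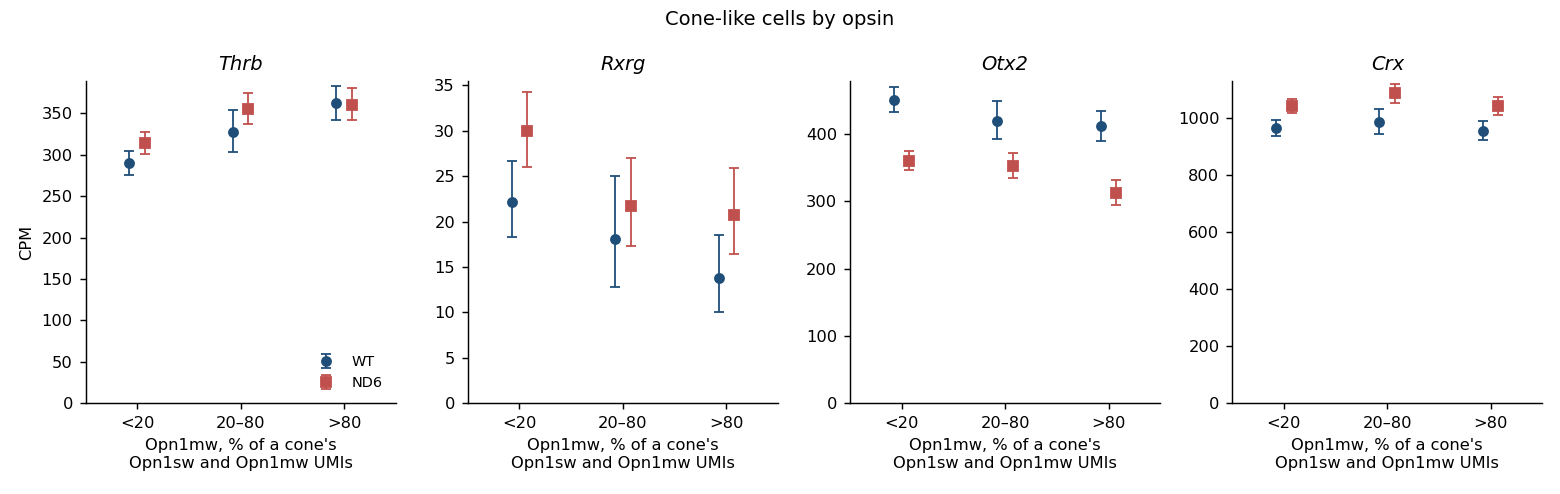
Level of Thrb, Rxrg, Otx2 and Crx (CPM) in cone-like cells grouped by the share of Opn1mw among opsin UMIs, for WT and ND6P25L with exact Poisson 95% intervals. From cones poor in Opn1mw to cones rich in it, Thrb goes from 290 to 362 CPM and Rxrg from 22.2 to 13.8 CPM in WT.

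In bipolar-like cells, Otx2 stood slightly above Malat1-high rods. It stood at 490 CPM (457 to 524) in WT and 537 CPM (514 to 560) in ND6P25L, against 429 and 425 CPM in Malat1-high rods. Nrl (1061 and 907 CPM), Nr2e3 (627 and 657), Samd7 (178 and 107) and Esrrb (61.3 and 99.6) all stood lower than in Malat1-high rods, by -0.92 to -1.38 on the log2 scale. Samd7 in WT stood above Malat1-low rods (178 against 100 CPM, 0.83 with an interval of 0.64 to 1.02). Against Malat1-low rods, Samd7 in ND6P25L (107 against 109 CPM) and Esrrb in WT (61.3 against 71.1) had intervals that held 0. None of the 8 factors that passed the minimum of 20 UMIs in WT and 1 of 9 in ND6P25L was at least 2-fold higher than in Malat1-high rods, against 17.3% and 19.9% of all genes. The 1 in ND6P25L was Rxrg, with 12 UMIs in bipolar-like cells and 8 in Malat1-high rods. In WT, Rxrg had 1 UMI in bipolar-like cells and 3 in Malat1-high rods and did not pass the minimum. Different clusters weighed differently in the libraries: cluster 12 held 82 of 232 cells in WT and 308 of 628 in ND6P25L, and its Gnat1 stood at 6423 and 6252 CPM, against 7509 and 7304 CPM in Malat1-high rods.

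Gnat1 separated this class further. In the other 4 bipolar-like clusters (150 WT and 320 ND6P25L cells) Gnat1 stood at 1514 to 2090 CPM in WT and 1322 to 1730 CPM in ND6P25L, while Otx2 stood at 425 to 714 and 409 to 696 CPM. Per Gnat1 UMI, Otx2 was there 4.69 to 5.98 times its value in Malat1-high rods of WT and 4.89 to 9.06 times in ND6P25L. Crx was 1.28 to 1.83 and 1.65 to 2.05 times, Neurod1 1.36 to 1.58 and 1.501 to 1.83 times, and Nrl 0.810 to 1.15 and 0.798 to 0.984 times the rod value. Nrl thus stood to Gnat1 at close to the ratio of rods, and Otx2 stood well above it in each of these clusters. The same 4 clusters did not share Thrb, which per Gnat1 UMI spanned 0.667 to 5.63 times the rod value in WT and 1.26 to 3.59 times in ND6P25L. Its top was in cluster 20, whose leading genes include Brinp3, Chrm2 and Rbp4, with a level of 210 CPM in WT against 19.4 CPM in the lowest of the 4. These WT levels rest on 45 Thrb UMIs over the 4 clusters, and cluster 20 held 19 WT cells. In ND6P25L, on 100 Thrb UMIs, the levels of the 4 clusters ran from 42.8 to 98.5 CPM.

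**Figure D4:**
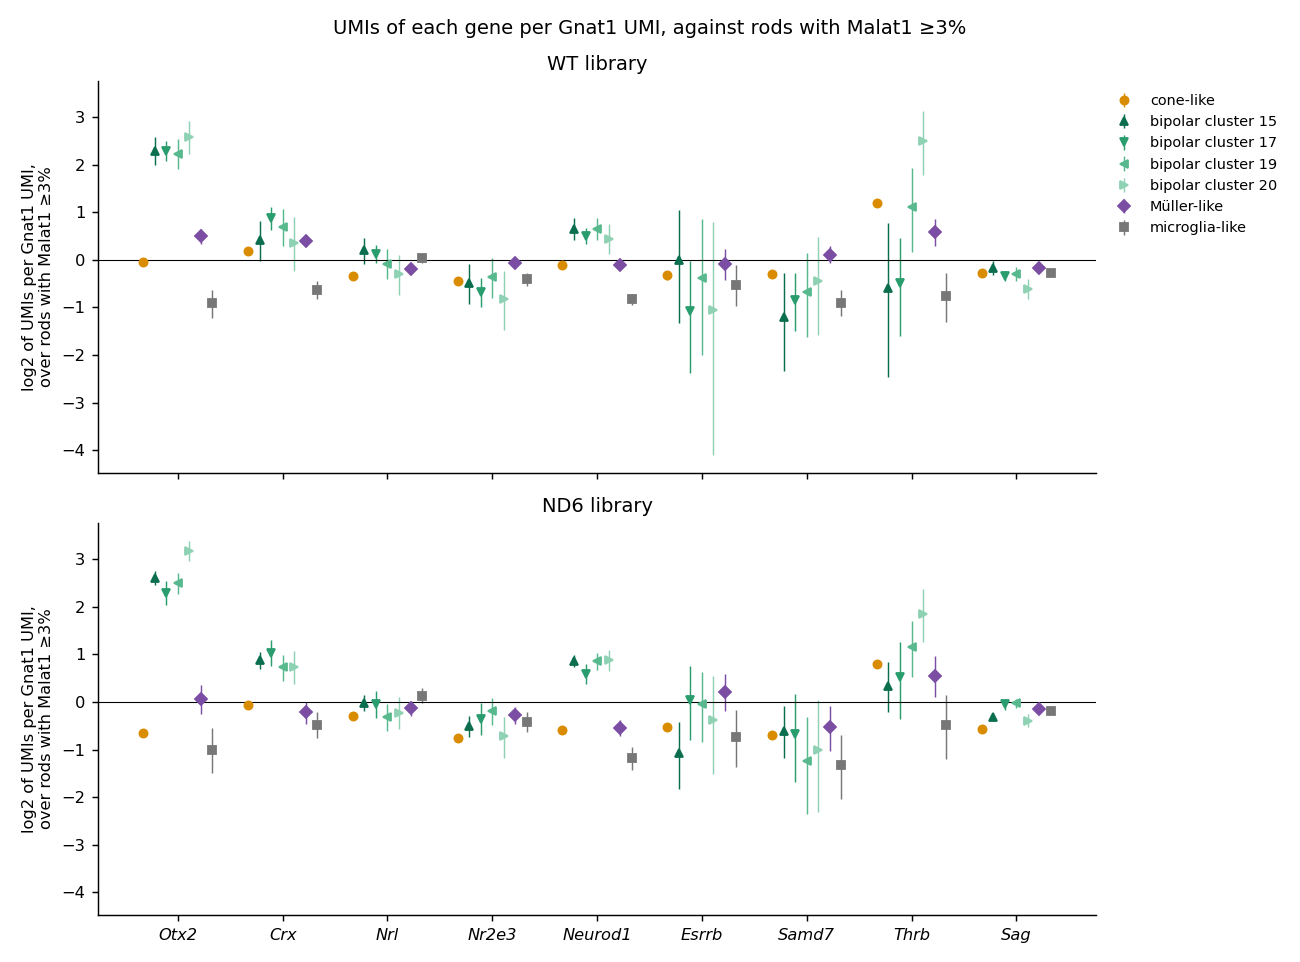
UMIs of 8 factors per Gnat1 UMI, as log2 over Malat1-high rods of the same library, in cone-like cells, 4 bipolar-like clusters, Müller-like and microglia- or macrophage-like cells of WT and ND6P25L, with exact 95% intervals; Sag is a rod gene shown for reference, and Rxrg is left out. Otx2 lies from 2.23 to 3.18 in the bipolar-like clusters and at -0.92 and -1.004 in microglia- or macrophage-like cells, and Nrl lies between -0.34 and 0.20 in every group plotted.

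A class that uses Otx2 outside the neural retina was at hand in RPE-like cluster 18, with 101 WT cells and 4 ND6P25L cells. Its WT cells held 419 Otx2 UMIs, 436 CPM (395 to 480), at a Gnat1 level of 606 CPM, and Crx at 41.6, Neurod1 at 80.1 and Samd7 at 22.9 CPM. With 13 Otx2 UMIs, the ND6P25L cells of cluster 18 gave no usable comparison. RPE-like cluster 8 held more cells, 219 in WT and 954 in ND6P25L. Its summed RPE markers stood at 26834 and 56343 CPM and its summed rod markers at 59559 and 41518 CPM. Otx2 made 6.68% of its 4834 UMIs of the 9 factors in WT and 9.50% of 5589 in ND6P25L, against 46.0% of 910 in WT cluster 18. In amacrine-like cells, Otx2 per Gnat1 UMI was at -0.15 of Malat1-high rods in WT and -0.25 in ND6P25L on the log2 scale, and Crx was at -0.14 and -0.01.

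Müller-like cells were few, and their depth differed between the libraries (medians of 10130 UMIs in WT and 1662 in ND6P25L). None of the 8 factors that passed the minimum of 20 UMIs was at least 2-fold higher than in Malat1-high rods, against 16% of all genes in WT and 17.1% in ND6P25L. Rxrg did not pass it, with 4 UMIs in WT (5.37 CPM against 0.164 in Malat1-high rods, a log2 ratio of 5.04 with an interval of 2.47 to 7.81) and 1 UMI in ND6P25L. Otx2 stood at 448 CPM (401.3 to 499) in WT and 276 CPM (223 to 338) in ND6P25L. Crx stood at 805 and 464, Nrl at 1473 and 972 and Neurod1 at 1559 and 808 CPM, with 158 Crx UMIs in ND6P25L. Per Gnat1 UMI, Otx2 was at 0.50 (0.34 to 0.66) of Malat1-high rods in WT and 0.06 (-0.25 to 0.35) in ND6P25L on the log2 scale, Crx at 0.40 and -0.22, and Nrl at -0.20 and -0.14. Trpm1 reached 64.4 and 220.3 CPM in these cells, and 25% and 35.6% of them were among the highest 10% of doublet scores. Their part in these levels was not tested.

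The last comparison set the ND6P25L library against WT, to ask whether the mutant retina holds these factors at other levels. Samd7 was lower in ND6P25L in all rod-like cells combined and in cone-, bipolar- and Müller-like cells, and Esrrb was higher in these classes, except at -0.04 in Müller-like cells without the highest doublet scores. Nrl and Neurod1 were lower in every class with intervals below 0, although with free RNA subtracted in the share that Gnat1 of microglia- or macrophage-like cells gives (63.6% in WT and 47.7% in ND6P25L, added after seeing the data) Nrl in cone-like cells was at 0.20, none was left in WT bipolar-like cells, and Neurod1 was at 0.14 in bipolar-like cells. In Malat1-low rods that subtraction put Otx2 at 2.53, Neurod1 at 2.56 and Esrrb at 3.30, against 0.18, -0.06 and 0.97 before it. It removed most of their WT levels there (131, 690 and 71.1 CPM), so these ratios rest on small remainders and have no interval. The WT free RNA held 1090 UMIs of the factors, of which Otx2 made 4.13%, Neurod1 21.1% and Esrrb 2.11%. No rise in ND6P25L is read from these ratios. Neurod1 was also above 0 in Malat1-low rods without the mtDNA limit (0.11) or without the highest doublet scores (0.0057), and in bipolar-like cells thinned to 400 UMIs (0.17) or weighted equally (0.015). Crx and Nr2e3 were within 0.13 of 0 in Malat1-high rod, cone-like and bipolar-like cells, but in bipolar-like cells thinned to 400 UMIs they were at 0.79 and 0.60, and Nr2e3 there was at 0.54 with cells weighted equally and 0.69 with free RNA subtracted. In Müller-like cells, where 40 to 331 UMIs stood behind the ND6P25L value of each factor other than Rxrg (1 UMI), 6 factors turned direction under another processing: without the limit on mtDNA-encoded UMIs Otx2 was at 0.03, Crx at 0.15 and Thrb (at -0.11 before) at 0.37, with cells weighted equally Nrl was at 0.28, Nr2e3 (at -0.48 before) at 0.05 and Thrb at 0.57, and without the cells of the highest doublet scores Esrrb was at -0.04. Clustering without the limit on mtDNA-encoded UMIs also gave the Müller name to a cluster of 3228 WT and 2101 ND6P25L cells, led by Bc1, Nefl and Glul. The Müller-like values without that limit therefore describe other cells than the 36 WT and 90 ND6P25L cells of the main comparison. The genotype and the preparation of the library cannot be told apart here.

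Samd7 had 463 CPM in WT and 273 CPM in ND6P25L Malat1-high rods (-0.76 on the log2 scale, -0.82 to -0.71), 385 and 213 CPM in cone-like (-0.86), 178 and 107 CPM in bipolar-like (-0.73) and 369 and 117 CPM in Müller-like cells (-1.65). In Malat1-low rods it was 100 and 109 CPM (0.12). In microglia- or macrophage-like cells, where it stands with rod RNA, it was 128 and 61.4 CPM. The 4 bipolar-like clusters with less Gnat1 held 54 of the 299 WT and 57 of the 421 ND6P25L Samd7 UMIs of bipolar-like cells. Per Gnat1 UMI, Samd7 was there 0.434 to 0.733 (WT) and 0.425 to 0.656 (ND6P25L) times its value in Malat1-high rods. The classes share rod RNA and are not separate observations, and its part in the Samd7 differences was not tested. The lower Samd7 of ND6P25L was thus seen in each class named here except Malat1-low rods as a whole, where scaling by the median of ratios gave -0.07. That class was made up differently in the libraries: 295 WT and 2077 ND6P25L rods had 0.5% to 1.5% Malat1. At that step Samd7 stood at 260 CPM in WT and 143 CPM in ND6P25L. Between 0.25% and 0.5% it stood at 83.4 and 101 CPM, and under 0.25% at 80.6 and 92.4 CPM.

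Esrrb had 157 and 227 CPM in Malat1-high rods (0.53, 0.46 to 0.61), 71.1 and 139 CPM in Malat1-low rods (0.97), 129 and 200 CPM in cone-like (0.63), 61.3 and 99.6 CPM in bipolar-like (0.70) and 109 and 164 CPM in Müller-like cells (0.60). The 4 bipolar-like clusters with less Gnat1 held 21 of the 103 WT and 59 of the 392 ND6P25L Esrrb UMIs of bipolar-like cells. The part of rod RNA in the Esrrb differences outside rods was not tested. Nrl differed by -0.42 in Malat1-high rods, -0.53 in Malat1-low rods, -0.06 in cone-like, -0.23 in bipolar-like and -0.60 in Müller-like cells. Neurod1 differed by -0.27, -0.06, -0.47, -0.20 and -0.95 in the same order. Among rods with 0.5% to 1.5% Malat1, Neurod1 stood at 1377 CPM in WT and 863 CPM in ND6P25L. Between 0.25% and 0.5% it stood at 686 and 574 CPM, and under 0.25% at 599 and 593 CPM. Otx2 had no difference beyond counting error in Malat1-high rods (429 and 425 CPM, -0.01 with an interval of -0.07 to 0.04) but lay at -0.32 in cone-like and 0.13 in bipolar-like cells (0.0028 when scaled by Gnat1 and -0.07 with free RNA subtracted). Thrb differed by 0.18 in Malat1-high rods, 0.89 in Malat1-low rods and 0.08 in cone-like cells, where scaling by Gnat1 gave -0.18 and subtracting free RNA -0.09. Crx in cone-like cells was at 0.13, at -0.13 when scaled by Gnat1 and at -0.11 with free RNA subtracted.

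The counts of factors were read against all genes. At least 0.5 apart on the log2 scale, in either direction, were 4 of 9 factors over all rod-like cells (27.7% of all genes tested), 2 in Malat1-high rods (25.6%), 4 in Malat1-low rods (34%), 2 in cone-like (20.4%), 2 in bipolar-like (24.4%) and 6 in Müller-like cells (38.3%). Rxrg did not pass the minimum of 20 UMIs in Malat1-high rods, bipolar-like or Müller-like cells, so that 8 factors were tested there. The 2 in Malat1-high rods, cone-like and bipolar-like cells were Samd7 and Esrrb. The 4 in Malat1-low rods were Nrl, Esrrb, Thrb and Rxrg, of which Rxrg, on 17 and 4 UMIs, had an interval that held 0 (1.46, -0.15 to 3.50). In Malat1-low rods the median of all genes was itself 0.25 (0.06 with the median of ratios, which put Otx2 at -0.02 and Nr2e3 at -0.08), and relative to it Crx was at 0.15, Thrb at 0.64, Esrrb at 0.72 and Nrl at -0.78. Of the other regulators, 5 of 22 tested in Malat1-high rods were higher by 0.5 or more and none was lower. Of all 12249 genes tested there, 2467 were higher and 671 lower. In cone-like cells 3 of 23 were higher and none lower, against 1539 and 970 of 12309 genes. Regulators were lower by 0.5 or more in all rod-like cells (1 of 23) and Müller-like cells (5 of 22), and in neither Malat1-low rods nor bipolar-like cells. Their highest in Malat1-high rods were Tbx2 at 3.76 and 0.273 CPM (ND6P25L and WT) and Lhx4 at 2.09 and 0.327 CPM, which stood at 60.7 and 185 CPM in WT bipolar-like cells. Their highest in cone-like cells were Tbx2 at 1.83 and 0.568 CPM and the retinal orphan receptor gene Rorb at 645 and 298 CPM, and their lowest Nr1d1 at 98.8 and 108 and Fiz1 at 26.8 and 31.5 CPM.

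Markers of other cells moved with the library. In rod-like cells the summed markers of cones were 232 CPM in WT and 382 in ND6P25L (10 of 10 markers counted in both), those of bipolar cells 167 and 266 (12 of 12) and those of Müller cells 251 and 404 (11 of 11), while Meg3, a long noncoding RNA of inner retinal neurons, was 1.53 CPM in WT and 66.4 CPM in ND6P25L Malat1-high rods. Their part in the differences of the 9 factors was not tested. Free RNA held Trpm1 at 39.8 CPM in WT and 131 CPM in ND6P25L.

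**Figure D5:**
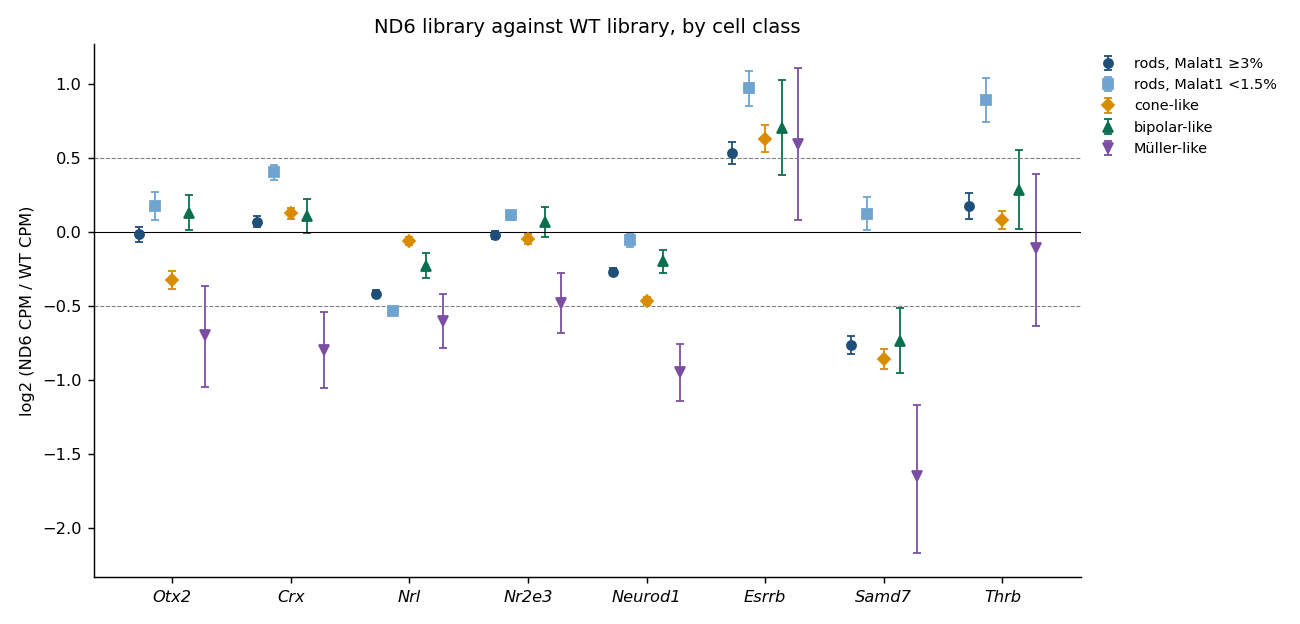
Difference of each factor between the ND6P25L and the WT library (log2 of the ratio of CPM) in 5 classes of cells, with exact 95% intervals for counting error; Rxrg is left out for its few UMIs in rods. Samd7 lies below 0 in all classes except Malat1-low rods, and Esrrb lies above 0 in all 5.

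Rxrg counted 8 UMIs in WT and 28 in ND6P25L over all rod-like cells, 0.230 and 0.819 CPM, and 196 and 384 UMIs in cone-like cells (0.43 on the log2 scale, 0.18 to 0.69, and -0.01 with free RNA subtracted). The summed cone markers of rod-like cells were also higher in ND6P25L, and their part was not tested. In Malat1-high rods its ratio had an interval of -0.03 to 4.58.

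As a description of pattern, each factor was correlated with 10217 genes over 20 sums (10 classes in 2 libraries, which share free RNA and depth), on log2(CPM + 1). Nearest to Nrl were Guca1b and Unc119 (Pearson r of 0.99 and 0.98), genes of phototransduction and of photoreceptor protein trafficking. Nearest to Nr2e3 were the rod phosphodiesterase gene Pde6b (0.98) and Tnfsf12 (0.97), and nearest to Crx were Mpp4 and Icmt (0.97 for both). Neurod1 had Kdm4c (0.98) and Galnt7 (0.97), and Samd7 had Neurod1 itself (0.96) and Memo1 (0.95). Otx2 had Atp11a (0.92), Esrrb 2810030D12Rik (0.93) and Klhl18 (0.92), Thrb Nr6a1 (0.93) and Mef2d (0.92), and Rxrg Dusp23 (0.84) and Eif3b (0.83).

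Some counts carry an annotation limit. Neurod1 lies within Cerkl on the same strand, Nr2e3 overlaps Gm15507 on the same strand and Gm7616 on the opposite one, Otx2 overlaps Otx2os1 and Thrb overlaps Gm48321 on the opposite strand. How the counting treated reads shared by such genes is not given in the sources used here.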

How the data were processed

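Retina of 1 WT and 1 ND6P25L library was dissociated with trypsin and papain and run on the 10x Chromium 3′ kit. The values are counts: the authors deposited raw UMI counts per gene and barcode from Cell Ranger 3.0.2 (reads aligned to mm10, per the labels), over all 6794880 barcodes of the kit and not filtered for cells. The totals were 77958836 (WT) and 80358255 (ND6P25L) UMIs, of which 54524401 and 62949610 were in cells. Fewer cells passed the limits used here, which are those the study states, than the study counts; which cell set the study used, and whether a library pools several mice, is not given in the sources used here. The limit on mtDNA-encoded UMIs removed 10647 WT and 3861 ND6P25L barcodes.

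Cells were normalized to their total, log transformed and clustered together with Leiden (leidenalg 0.10.2, igraph 0.11.9, resolution 1, 3000 variable genes, 30 components, 20 neighbours; Python 3.11.15, numpy 2.4.6, scipy 1.17.1, pandas 2.3.3, matplotlib 3.10.9). The 9 factors, the gene lists, Malat1 and mtDNA-encoded genes were left out. A cluster was named where at least 3 markers of a class were raised 2-fold and no other class had more markers among its 10 leading genes, which had to be detected in at least 25% of its cells; this rule, and a repeat that set rods against named clusters other than cones, were settled after the clusters were seen. Cluster 5 (940 WT and 1418 ND6P25L cells, led by Nefl and Glul) stayed unnamed and entered no class. No doublets were removed; a doublet score from simulated pairs served as an alternative.

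UMIs were summed per class and library and expressed per 1000000 UMIs (CPM). A gene entered a comparison with at least 20 UMIs over both sums. The floor for a count of 0 was 3 UMIs. Intervals are 95%, exact Poisson for levels and exact conditional for ratios, and the scripts were tested on simulated data. Some genes are not reported here; Gnat1 served as the rod reference and was chosen after the data were seen. Cells are not replicates, so no p-values are given. All 9 factors were named in every comparison, and of the other regulators and photoreceptor genes the 2 highest and 2 lowest. The factors, lists and comparisons were chosen with earlier results of these data known. Gene positions came from GENCODE vM21 (GRCm38), in which 32235 of 32285 gene IDs matched.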

Additional observations from a re-analysis of the deposited data

Results flagged for a closer look

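Barcodes above the limit of 20% mtDNA-encoded UMIs entered the comparisons only where that limit was dropped as an alternative. There 4 of the 9 factors were higher in the ND6P25L library than in WT beyond counting error (44% of all genes) and 4 were lower (13.5% of all genes). Otx2 stood at 117 CPM (546 UMIs) in ND6P25L and 104 CPM (1332 UMIs) in WT, or 0.17 on the log2 scale. Esrrb stood at 69.9 and 48.8 CPM, or 0.52, as it was also higher in the cells below the limit. Thrb stood at 69.5 and 42.5 CPM, or 0.71. Rxrg stood at 4.71 and 1.94 CPM, or 1.28, on 22 and 25 UMIs. Lower were Nrl at 949.7 and 2188 CPM, or -1.20, Nr2e3 at -0.49, Neurod1 at -0.33 and Samd7 at -0.31, and Crx was at 0.03 with an interval of -0.05 to 0.12. Markers of cell types moved with the library in these barcodes: the summed rod markers stood at 34399 CPM in ND6P25L and 62657 CPM in WT (11 of 11 counted in both), those of Müller cells at 5480 and 1341 (11 of 11), of ganglion cells at 1415 and 357 (7 of 7), of bipolar cells at 945 and 368 (12 of 12) and of cones at 1348 and 1028 (10 of 10). Their part in these differences was not tested.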

How the results depend on the processing

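No paired analysis was possible because each genotype has 1 library. Counts of factors past the fold kept within 1.5 times their first value in 139 of the values under other processing and moved in 23, and the cause was not tested. With no mtDNA limit, the factors at least 0.5 apart between libraries were 3 rather than 6 in Müller-like cells. The Müller name then also went to a cluster of 3228 WT and 2101 ND6P25L cells led by Bc1, Nefl and Glul. At resolution 2 it also went to a cluster of 821 and 975 cells led by Nefl and Glul. Without the mtDNA limit the factors at least 2-fold over rods were 0 rather than 1 in ND6P25L bipolar-like cells. That count was also 0 with cells weighted equally, thinned to 400 UMIs, clustered at resolution 2 or without the highest doublet scores. With the median of ratios, which shifts all genes alike, 1 rather than 5 (WT) and 0 rather than 3 (ND6P25L) were higher in Malat1-high rods, and 1 rather than 2 differed between libraries there. With cells weighted equally, 2 rather than 4 differed between libraries over all rods and 4 rather than 2 in bipolar-like cells, and 1 rather than 0 was higher than in rods in WT bipolar-like and in WT Müller-like cells. Thinning gave 1 rather than 2 between libraries in Malat1-high rods and in cone-like cells, 4 rather than 2 in bipolar-like, 2 rather than 6 in Müller-like cells, and 1 rather than 2 for WT cone-like cells over rods. Against all rods, 1 rather than 0 was higher in ND6P25L Müller-like cells. The planned subtraction of free RNA was not run; in its place, and added after seeing the data, free RNA was subtracted in the share given by Gnat1, and 4 rather than 2 factors differed between libraries in cone-like cells. Scaled by Gnat1 (added after seeing the data), over rods 1 rather than 2 was higher in ND6P25L cone-like, 1 rather than 0 in WT bipolar-like and 2 rather than 1 in ND6P25L bipolar-like cells. Of 41 differences of single factors past the fold, 459 of 464 values kept their direction; the others, between libraries in Müller-like cells, were Otx2 at 0.025 and Crx at 0.15 without the mtDNA limit, Nrl at 0.28 with cells weighted equally and 0.022 when thinned, and Esrrb at -0.036 without the highest doublet scores. Over all 119 differences of single factors, including those near 0, 92 of 1352 values had the other direction. Of these 1352 values, 774 were classed as the same, 573 as moved and 5, those named above, as reversed.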
